A study of Mus musculus with 9 samples.

Results

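Hearts injected with cardiomyocytes were compared with hearts injected with saline, by the signal of every gene on 6 of the series' 9 arrays. These were the 3 arrays labelled as injected with iCM, cardiomyocytes differentiated from induced pluripotent stem cells and grown until they beat, and the 3 labelled as injected with saline. All gene rows with 1 gene symbol entered the comparison, with the brightest row kept for each gene, which gave 19505 genes.

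The mice, labelled as female SCID animals 80 to 100 days old, have no working T or B lymphocytes. All had an acute infarct made by ligation of the left anterior descending coronary artery, and the tissue was the peri-infarct region, the rim of surviving myocardium around the scar, dissected 4 weeks later. The other 3 arrays came from hearts injected with iCM-Ex, exosomes precipitated from iCM. Each array was labelled as a separate biological replicate, so the p-values measure the spread between these samples. The sources used here do not give the stem cell line, its species, the number of cells injected or whether injected cells were still present.

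Several of the genes described below belong to pathways whose working is well known. Interferons signal through JAK kinases and STAT proteins to switch on immunity-related GTPases and guanylate-binding proteins, which attack the compartments in which intracellular pathogens live. Proteins bound for the cell surface enter the endoplasmic reticulum, receive sugar chains assembled on the lipid dolichol, travel to the Golgi in COPII-coated vesicles, and return, where needed, in COPI-coated vesicles. The ESCRT machinery cuts membrane buds that point away from the cytoplasm and so makes the inner vesicles of endosomes, some of which are released as exosomes.

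Some arrays went against their labels or stood apart. Eif2s3y, a Y-linked gene, had a log2 signal of 10.63 on saline 3 and 14.59 on iCM 2, and of 11.37 and 11.46 on iCM-Ex 2 and 3. On the other 5 arrays it lay between 3.43 and 4.05, and the Y-linked gene Uty separated the same arrays, although all mice were labelled as female. With only the 5 arrays without Y-linked signal, which leave 2 saline and 2 iCM arrays, limma called 9 genes, 6 of them among the 716 called with all arrays, and with the Y-linked signal as a covariate it called 649, of which 589 were shared. Lung markers were raised on iCM 1, where the mean log2 signal of 10 alveolar and airway genes was 11.45, against 4.26 to 4.87 on the saline arrays, 5.92 on iCM 2 and 4.89 on iCM 3. Fast skeletal muscle markers (11 genes) averaged 12.88 on iCM 2 and 5.65 to 6.86 on the other 5, and fat markers (10 genes) averaged 9.13 on iCM 2 and 4.82 to 5.81 on the other 5. Without iCM 1, iCM 2 and iCM-Ex 3, the arrays known to carry such markers, limma called 6 genes, 5 of them shared with the 716. That fit sets 1 iCM array, iCM 3, against 3 saline arrays, and its spread comes from the other groups, so the lone array is assumed to vary as they do.

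Markers of the labelled tissue were high throughout. The mean log2 signal of 12 cardiomyocyte genes was 16.62 to 17.37 on the saline arrays and 16.14 to 17.75 on the iCM arrays, and none of the 12 passed the limma threshold (1 had an unadjusted p under 0.05). All 10 pluripotent cell markers had saline means under the median negative control, with array means of 3.80 to 3.86 in saline and 3.92 to 4.19 in iCM. Immature cardiomyocyte markers averaged 8.28 to 8.41 in saline and 8.52 to 8.64 in iCM, and 0 of 11 passed the limma threshold (3 at an unadjusted p under 0.05). Of 10 lymphocyte markers, 9 had saline means under that control. Cardiac fibroblast markers were lower in all 8 measured genes, with a median difference of -1.30, which was -0.59 without iCM 3 and -2.16 without iCM 1, and none passed the limma threshold, nor had an unadjusted p under 0.05. In such bulk tissue, fewer cells of a type and less RNA per cell cannot be told apart.

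Signal also differed between the groups by level. Control separation, the median log2 signal of positive control probe sets minus that of negative ones, was 3.44 ± 0.15 in saline and 2.94 ± 0.41 in iCM (SD, n = 3 each), with no overlap between the groups (exact two-sided permutation p = 0.1, the smallest that 3 against 3 allows). The lowest value was 2.47 on iCM 2. With the genes sorted by mean signal into 5 groups of 3901, the median iCM minus saline difference went from 0.13 and 0.20 in the dimmest groups through 0.11 and -0.06 to -0.24 in the brightest. Quantile normalisation brought these medians to between -0.01 and 0.03. Calls also gathered among bright genes, with 294 of the 3901 brightest genes lower in iCM and 97 higher. In the next brightest group 118 were lower and 71 higher. Counts for gene lists and families below were not matched for signal level, so lists of bright genes start from a higher share.

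**Figure D1:**
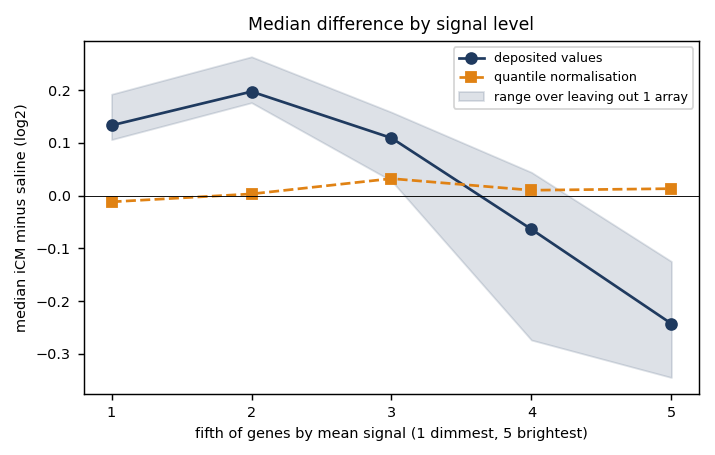
Median iCM minus saline difference (log2, vertical axis) in 5 equal groups of genes sorted by mean signal (horizontal axis, 1 dimmest to 5 brightest). The line of deposited values runs from 0.13 in the dimmest group to -0.24 in the brightest, the dashed line after quantile normalisation stays between -0.01 and 0.03, and the band shows the range over leaving out each of the 6 arrays.

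The comparison asked how the peri-infarct region differed after cell injection. More genes were lower than higher, and the largest rises past the threshold included several interferon-inducible genes. At a limma adjusted p under 0.05, 716 genes (3.67% of those tested) differed. Of these, 262 (1.34%) rose, by a median of 1.79 on the log2 scale, and 454 (2.33%) fell, by a median of -2.14. The smallest limma adjusted p was 0.00253. Among all genes the median difference was 0.08, and 55.5% were higher in iCM. After quantile normalisation 418 genes rose and 442 fell, so that rises made up 48.6% of calls, against 36.6% before, and all 716 genes kept their sign.

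In all 716 the 3 iCM arrays lay wholly above or below the 3 saline arrays, as they did in 24% of all genes. The non-overlapping genes were higher in iCM in 13.8% of all genes and lower in 10.2%. In 114 of the 716 the mean of at least 1 group lay below the median negative control, and in 26 both did, so the size of those changes is uncertain. With control separation as a covariate limma called 33 genes, 26 of them among the 716, and all 716 kept their sign. The count fell to 126 without saline 2, to 196 without iCM 2 and to 423 without saline 3. The number of rises alone also fell to 117 without saline 1 and 142 without iCM 3.

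The genes nearest to the threshold were as follows. Just inside lay Tmem175, Ncoa6, Xiap, 4921504E06Rik and Mkx, with differences of -1.56, -1.31, 1.53, 1.17 and 1.25. Just outside lay Dpy19l4, Ndufa2, Pitpna, Gm1818 and Odam, with differences of 1.31, 2.12, -1.45, -1.57 and 1.43.

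Leaving out each of the 6 arrays in turn separated the calls further. A set of 105 genes (0.538% of all tested) stayed past the limma threshold in all 6 repeats, 27 higher and 78 lower in iCM. Of the 105, 104 were called with only the saline and iCM arrays in the fit, and 19 with control separation as a covariate. With only the arrays without Y-linked signal, which leave 2 saline and 2 iCM arrays, 1 of the 105 was called. The 716 genes lost between 196 (without iCM 1) and 591 (without saline 2) of their calls when 1 array was left out. None changed sign, and none could, because the groups did not overlap in any of the 716. A difference of at least 2 was found for 651 genes, of which 372 passed the threshold and 279 did not. Of the 651, 34 came to under 1 without 1 array, and none of these was among the calls.

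**Figure D2:**
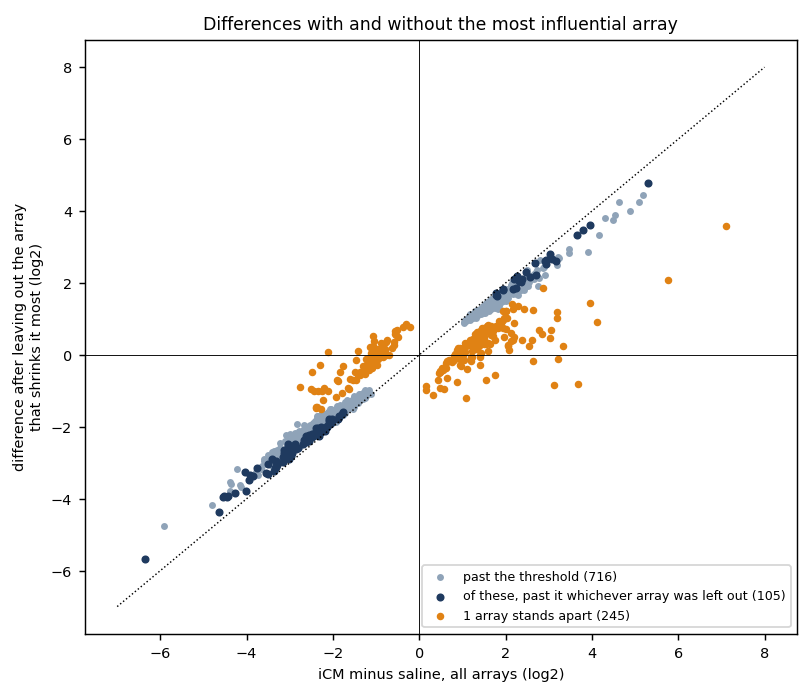
Difference with all arrays (log2, horizontal axis) against the difference after leaving out the array that shrinks it most (vertical axis), 1 point per gene, with the dotted line marking equal values. The 105 genes past the threshold in all 6 repeats and the other calls lie near the line, and the 245 genes in which 1 array stands apart lie far from it and often near or across 0.

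The largest rises past the threshold were of interferon-inducible GTPases. Iigp1, an immunity-related GTPase, had log2 signals of 7.97, 6.69 and 7.58 in saline and of 13.74, 10.77 and 13.61 in iCM. Igtp, another GTPase of that family, had 5.70, 5.89 and 6.70 in saline and 11.97, 8.72 and 12.84 in iCM, a rise of 5.08 ± 0.84 (SE; limma adjusted p = 0.0141). Irgm1, which regulates the other family members, had 8.34, 7.97 and 9.44 in saline and 13.87, 11.15 and 13.63 in iCM. In each of the 3 genes every iCM array lay above every saline array, and iCM 2 was the lowest iCM array by at least 2 on the log2 scale. Tgtp2, a GTPase induced in T cells and other cells by interferon, had 8.45, 7.06 and 8.76 in saline and 12.88, 12.18 and 14.72 in iCM. The guanylate-binding protein gene Gbp4 had 9.59, 8.87 and 10.58 in saline and 14.56, 12.59 and 15.50 in iCM. In both, iCM 2 was again the lowest iCM array, and it still lay above every saline array.

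Of these, Iigp1 passed the limma threshold in all 6 repeats. The others missed it without saline 2, at limma adjusted p = 0.0661 for Igtp, 0.0586 for Irgm1, 0.0692 for Tgtp2 and 0.0605 for Gbp4. With only the 5 arrays without Y-linked signal, Igtp, Irgm1, Gbp4, Iigp1 and Mndal were among the 9 calls. In that fit Igtp differed by 6.61 and Irgm1 by 5.59. It left out saline 3, for both genes the highest saline array, and iCM 2, the lowest iCM array. Both differences could therefore only grow. The other calls there were Gm12250, which is another interferon-inducible GTPase, Ifit3, Baiap2l1 and Gdpd3 (named after their values were seen), of which the last lay lower in iCM. Iigp1, Igtp, Irgm1, Gbp4, Tgtp2 and Gm12250 kept their calls with control separation as a covariate, Tgtp2 at a limma adjusted p of 0.049. Mndal did not. With that covariate limma also called further interferon-inducible genes that missed the threshold without it (named after their values were seen). Irgm2, a relative of Irgm1, went from 2.67 to 4.47 (limma adjusted p = 0.0713 and 0.021), the transcription factor gene Irf1 from 2.24 to 3.83 (0.103 and 0.049) and Cd274, which encodes PD-L1, from 2.34 to 4.00 (0.101 and 0.049). Control separation did not overlap between the groups and was lowest on iCM 2, the lowest iCM array for Iigp1, Igtp, Irgm1, Tgtp2 and Gbp4. The larger differences with this covariate therefore depend on that adjustment. The GTPase genes have close copies in the mouse genome, and the sources used here do not say how far probe sets tell copies apart.

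The interferon-inducible HIN-200 genes, whose proteins sense DNA, had another pattern over the arrays. Mndal had 6.90, 7.74 and 11.26 in saline and 12.94, 14.34 and 13.25 in iCM, a rise of 4.88 ± 0.92 (limma adjusted p = 0.0228). Ifi204 had 6.97, 7.63 and 11.38 in saline and 11.66, 14.09 and 12.76 in iCM, a rise of 4.17 ± 0.99 (limma adjusted p = 0.0486). In both, saline 3 stood well above the other saline arrays, and iCM 2 was the highest iCM array, where it was the lowest for the GTPases. The limma adjusted p reached 0.0958 for Mndal (without saline 2, and also above the threshold without iCM 2) and 0.161 for Ifi204, which passed only without saline 3 or iCM 1. Among 13 genes whose symbol starts with Ifi, 10 were higher in iCM and 1 passed the threshold (7.7% against 3.67% of all genes). Their median difference was 1.80, and 0.93 without iCM 3. Among 11 Parp genes, which encode ADP-ribosyltransferases, 8 were higher, with a median of 1.13, which was 0.58 without iCM 3. Parp14 was the 1 call (9.1% against 3.67% of all genes), a rise of 1.88 ± 0.41.

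Promoter sequence of the 4 named interferon-inducible genes that could be matched is shown because STAT proteins and interferon regulatory factors bind such sites. Each line gives the bases around the motif matches, 5′ to 3′ on the strand of the gene, from RefSeq (GRCm38.p6), with matches to the gamma-activated site TTCNNNGAA or to GAAANNGA, the start of an interferon-stimulated response element, in capitals.
Igtp: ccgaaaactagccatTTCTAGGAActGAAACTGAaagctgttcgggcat
Tgtp2: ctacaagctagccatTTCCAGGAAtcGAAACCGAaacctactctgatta
Irgm1: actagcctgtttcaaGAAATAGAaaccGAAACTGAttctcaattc
Mndal: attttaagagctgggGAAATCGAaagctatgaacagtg

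The stretches lie at chr11:58199496-58199544 (plus strand, Igtp), chr11:49064260-49064308 (minus strand, Tgtp2), chr11:48871421-48871465 (minus strand, Irgm1) and chr1:173880201-173880238 (minus strand, Mndal). In Igtp and Tgtp2 the motifs stand next to each other in the same order, with the gamma-activated site at positions -45 and -81 from the start of the gene and the response element at -34 and -70. In promoters of 300 bases, searched on both strands, TTCNNNGAA occurred in 11.7% of 206 risen genes, 7.3% of 383 fallen genes and 9.0% of all 15691 genes with a promoter in the table. GAAANNGA occurred in 25.7%, 18.8% and 22.7% of these, so both motifs are common, and matches of the 2 can overlap at their shared letters. The AP-1 motif TGANTCA stood in 7.3%, 5.5% and 8.3%, the CRE motif TGACGTCA in 2.4%, 3.4% and 2.6%, and the E-box CACGTG in 8.7%, 12.3% and 9.3%. GGGANTTCC, an NF-kB motif, stood in 3.9%, 2.9% and 2.1%, and the TATA box TATAAA in 13.1%, 8.4% and 14.6%.

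Other rises were of single metabolic genes. Car4, a membrane-bound carbonic anhydrase of capillaries, had 7.46, 7.52 and 7.03 in saline and 10.92, 10.997 and 11.96 in iCM, a rise of 3.96 ± 0.39 (limma adjusted p = 0.00325). Its arrays were tight within each group, and its highest limma adjusted p over the 6 repeats was 0.0177. Xdh, xanthine dehydrogenase, which makes uric acid, had 9.95, 11.37 and 11.05 in saline and 13.12, 13.88 and 14.21 in iCM. Ces1d, a carboxylesterase that hydrolyses lipids and is abundant in fat, had 5.14, 5.34 and 4.82 in saline and 7.19, 8.63 and 8.29 in iCM, with a saline mean below the median negative control. Both passed the threshold in all 6 repeats. The highest Ces1d value was on iCM 2, the array with raised fat markers, and over the 6 repeats its difference lay between 2.64 and 3.36. The endothelial and fat gene Fabp4, a fatty acid carrier, rose by 2.91 ± 0.61 (limma adjusted p = 0.0306). It also had its highest value, 19.86, on iCM 2, at the top of that array's range. Its limma adjusted p was up to 0.0988 over the repeats. Of the 8 endothelial markers, of which Fabp4 is 1, 4 were higher and 4 lower, with a median of 0.02. There was no other call (12.5% called against 3.67% of all genes). Cdo1, cysteine dioxygenase, had 7.07, 7.53 and 7.22 in saline and 11.66, 13.31 and 8.58 in iCM, with iCM 3 nearest to saline. Of the 6 repeats it passed the threshold only in that without iCM 3, and its limma adjusted p reached 0.119.

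Some genes of respiration, translation and splicing rose. Ndufs5, a subunit of respiratory complex I, had 11.21, 12.23 and 11.19 in saline and 14.56, 15.20 and 15.85 in iCM, a rise of 3.66 ± 0.39 (limma adjusted p = 0.00397). Rps20, a protein of the small ribosomal subunit, had 11.08, 11.58 and 12.09 in saline and 14.15, 13.73 and 13.98 in iCM. Naca, which binds nascent chains as they leave the ribosome, had 11.91, 13.03 and 12.23 in saline and 14.45, 14.71 and 14.92 in iCM. All 3 passed in all 6 repeats, with no overlap of the groups. Polr2k, a small subunit shared by the RNA polymerases, rose by 2.48 ± 0.33, and the splicing proteins Lsm3 and Snrnp70 rose by 2.18 ± 0.36 and 1.79 ± 0.29. Of 39 spliceosomal snRNP proteins 23 were higher, with a median of 0.42, and 2 rose and 0 fell (5.1%, near the 3.67% of all genes). That median was 0.08 without saline 1.

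Not all members of the families of these genes moved alike. Of 11 Ndufb genes of respiratory complex I 8 were higher and none was called, with a median of 0.99, which was 0.35 without iCM 3. Of 14 Ndufa genes 8 were higher, 1 rose and none fell (7.1% called against 3.67% of all genes). Their median was 0.29, and -0.395 without iCM 3. Of 32 Rps genes 4 rose (Rps20, Rps6kb2, Rps24 and Rps19) and none fell (12.5% called against 3.67% of all genes). Their median was 0.41 (0.19 without saline 1), and Rps6kb2 encodes a kinase of ribosomal proteins, not a ribosomal protein. Of 40 Rpl genes Rpl37, Rpl37a and Rpl36al rose and Rpl6 fell. Among 26 Cox genes, most of which encode parts of respiratory complex IV, Cox4i1 and Cox7a2 rose, by 2.90 and 2.46, and Cox6a1 and Cox18 fell by 3.68 and 2.53. The share called of these 26 was 15.4%, and their median was -0.05, and 0.18 after quantile normalisation. Of 28 Mrps genes of the mitochondrial ribosome 2 rose and 3 fell (17.9%). Of 13 genes of the chaperonin CCT and of prefoldin, which fold actin and tubulin together, Pfdn2 and Pfdn1 rose by 1.98 and 1.49, and Tcp1 fell by 1.72 (23.1%).

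A few growth factor genes with low signals rose as well. Fgfr3, a fibroblast growth factor receptor, had 4.57, 5.87 and 5.16 in saline and 8.44, 8.08 and 7.83 in iCM, a rise of 2.91 ± 0.35 (limma adjusted p = 0.00439). Fgf3, a ligand known from development, had 3.63, 3.86 and 3.60 in saline and 5.61, 5.23 and 5.61 in iCM. Both passed in all 6 repeats, though the saline means lay near or below the median negative control, which was 5.07 to 5.48 on the saline arrays. Of 28 FGF ligands and receptors these were the 2 that rose and 0 fell (7.1% against 3.67% of all genes). The list's median was 0.06, and -0.08 after quantile normalisation. Of 14 genes of EGF, neuregulin and their receptors, Erbb3 rose (7.1%), by 1.47, from a saline mean below the median negative control.

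**Figure D3:**
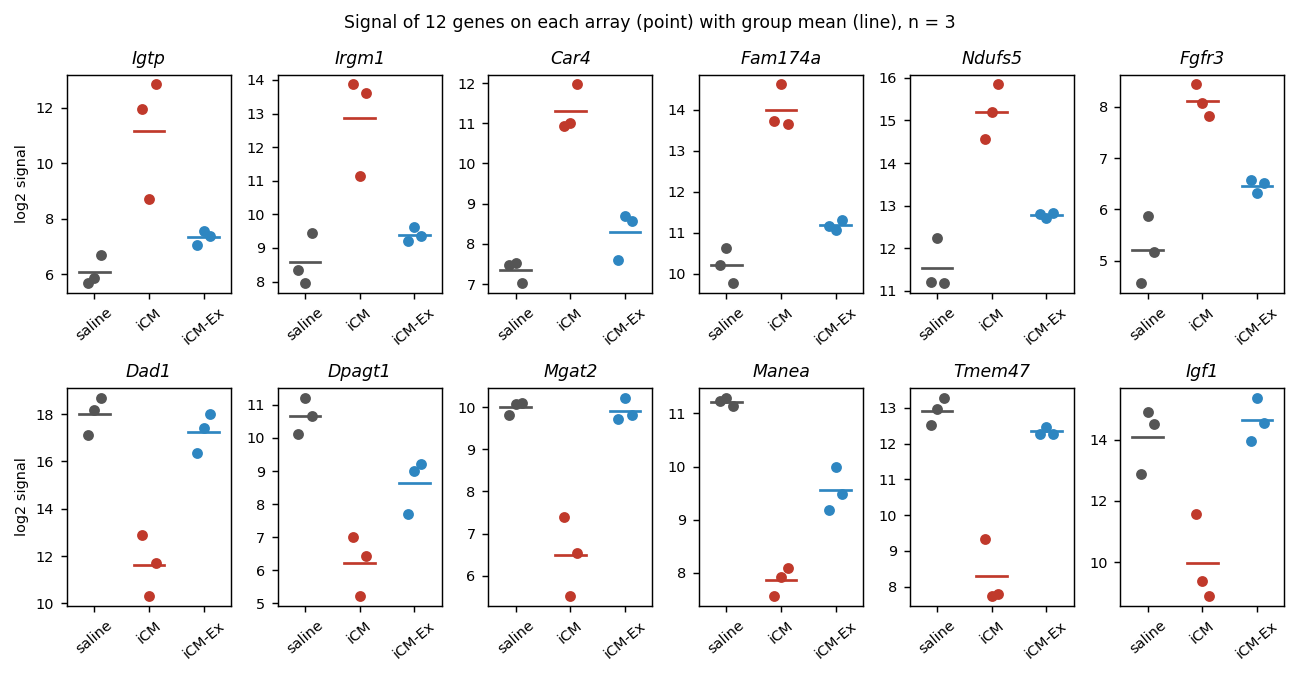
Log2 signal (vertical axis) of 12 genes on each array (points) with the group mean (line) for saline, iCM and iCM-Ex (n = 3 each). In the upper row every iCM array lies above every saline array, with iCM 2 the lowest for Igtp at 8.72, and in the lower row every iCM array lies below every saline array, as for Manea, at 7.57 to 8.09 against 11.15 to 11.29.

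Of the remaining rises that were largest, several had little else in common. Fam174a, which encodes a membrane protein, had 10.22, 10.63 and 9.78 in saline and 13.73, 14.62 and 13.65 in iCM, a rise of 3.79 ± 0.34 (limma adjusted p = 0.00253). H2ac6, a histone H2A gene, had 4.70, 5.15 and 5.61 in saline and 7.78, 8.49 and 8.31 in iCM, with a saline mean below the median negative control. Safb, a scaffold attachment factor that binds DNA and RNA, had 9.13, 10.69 and 8.80 in saline and 13.63, 14.90 and 13.97 in iCM, and it passed the threshold in 1 of the 6 repeats, that without iCM 1, with a limma adjusted p of up to 0.111. Ctla2a, a cysteine protease inhibitor, rose by 3.47 ± 0.59, and missed the threshold without saline 2 and without iCM 2, at a limma adjusted p of up to 0.0612. Fam174a and H2ac6 passed in all 6 repeats.

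The ESCRT proteins moved both ways. Chmp3, a subunit of ESCRT-III, which forms the filament that closes the bud, had 9.0, 10.12 and 11.71 in saline and 14.30, 14.07 and 12.86 in iCM, and missed the threshold without saline 2 and without iCM 2, at a limma adjusted p of up to 0.0867. Chmp6, which starts that filament, had 7.28, 7.24 and 7.49 in saline and 9.54, 9.73 and 9.49 in iCM. Its groups were the tightest of these genes, and it passed in all 6 repeats, at a limma adjusted p of up to 0.0256. Chmp2b, another subunit, rose by 1.61 ± 0.30. In contrast Pdcd6ip (Alix), an adaptor that brings ESCRT-III to membranes, had 12.28, 12.35 and 12.56 in saline and 10.81, 10.28 and 9.99 in iCM, a fall of -2.03 ± 0.28 (limma adjusted p = 0.00779). Of 29 ESCRT genes 3 rose and 1 fell (13.8% against 3.67% of all genes), and 8 of the 10 Chmp genes were higher. The list's median was -0.17, and 0.03 after quantile normalisation.

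Several genes that build and attach sugar chains fell. Dad1, a subunit of the oligosaccharyltransferase that moves the finished chain onto proteins, had 17.11, 18.16 and 18.70 in saline and 12.89, 10.31 and 11.72 in iCM. Dpagt1, which attaches the first sugar to dolichol, had 10.12, 11.21 and 10.67 in saline and 7.02, 5.22 and 6.45 in iCM, a fall of -4.44 ± 0.53 (limma adjusted p = 0.00439). Gmppa, which regulates the making of the mannose donor, had 8.71, 8.39 and 8.76 in saline and 5.79, 4.66 and 6.02 in iCM. In all 3 iCM 2 was the lowest array, and the other iCM arrays also lay below every saline array. Dolk, the kinase that makes dolichol phosphate, fell by 2.02 ± 0.36, and Pmm1, a phosphomannomutase, rose by 1.31 ± 0.25. Of 25 genes of dolichol-linked oligosaccharide assembly 3 fell, 1 rose and 18 were lower (16.0% called against 3.67% of all genes), with a median of -0.51, and -0.26 without saline 3. Of 25 genes of the translocon and signal recognition, which bring new proteins into the endoplasmic reticulum, 1 rose, 0 fell and 12 were higher (4.0%).

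Some enzymes that change the chain in the Golgi also fell. Mgat2, which adds a branch needed for complex chains, had 9.80, 10.08 and 10.09 in saline and 7.39, 5.52 and 6.54 in iCM, a fall of -3.51 ± 0.42 (limma adjusted p = 0.00439). Manea, a mannosidase that cuts inside the chain, had 11.22, 11.29 and 11.15 in saline and 7.57, 7.92 and 8.09 in iCM, a fall of -3.37 ± 0.29 (limma adjusted p = 0.00253). Both passed in all 6 repeats and with control separation as a covariate. Of 10 Mgat genes 5 were higher and 5 lower, with Mgat2 the 1 call, and of 17 Galnt genes, which start another kind of chain, 1 rose and 1 fell. Galt, which makes the galactose donor, had 8.66, 7.86 and 7.40 in saline and 4.75, 4.17 and 5.07 in iCM, where its mean lay below the median negative control. Of 24 genes of GPI anchor assembly, which attaches a lipid tail to surface proteins, Pigq, Pigt and Pigu fell, by 1.83, 2.48 and 2.28. None rose (12.5% called against 3.67% of all genes) and 17 were lower, with a median of -0.52. The GPI-anchored complement inhibitor Cd59a had 15.05, 13.85 and 12.65 in saline and 9.25, 9.0 and 9.72 in iCM.

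Coat and cargo receptor genes between the endoplasmic reticulum and the Golgi showed more falls than rises. Other families of membrane traffic differed. None was called of 29 Ap or 15 Trappc genes. Of 13 Stx genes 1 rose and 0 fell (7.7% called against 3.67% of all genes). Of 65 Rab genes 2 rose and 3 fell (7.7%). Of 34 COPI and COPII coat genes 5 fell and none rose (14.7% called against 3.67% of all genes), and 25 were lower. Their median was -0.45, which was -0.19 without saline 3 and -0.75 without saline 1. Their mean log2 signal, 9.75 to 10.47 on the saline arrays, lay at the level of the brightest group of genes. Copz2, a COPI subunit, had 12.07, 11.74 and 12.23 in saline and 10.07, 9.52 and 9.27 in iCM, a fall of -2.39 ± 0.29 (limma adjusted p = 0.00439). The COPII genes Sec24b, Tfg and Sec23a and the COPI gene Copa fell by 2.22, 2.52, 1.24 and 1.49, and each missed the threshold in at least 1 repeat, and the iCM mean of Sec24b lay below the median negative control, as did those of Pigq, Fzd5, Med16 and Mapk10 among the other named falls. Gbf1, the exchange factor that starts COPI coats, fell by 2.54 ± 0.35 and passed in every repeat. Of 10 Tmed genes, cargo receptors of these vesicles, Tmed7, Tmed4 and Tmed3 fell, by 1.89, 2.16 and 2.59, and none rose (30.0%). Tmed7 had 13.09, 13.07 and 13.37 in saline and 11.34, 11.21 and 11.30 in iCM, with a narrower spread than its difference in both groups.

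Sorting and modifying genes of membrane proteins fell in small numbers. Of 24 Zdhhc genes, enzymes that attach palmitate to proteins, 5 fell and none rose (20.8% against 3.67% of all genes). Of the 24, 18 were lower, with a median of -0.34, which was -0.71 without saline 1. Zdhhc9, which palmitoylates Ras proteins, had 10.68, 10.999 and 11.10 in saline and 9.25, 8.03 and 8.02 in iCM, and Zdhhc4, Zdhhc2 and Zdhhc24 fell by 2.04, 1.64 and 1.68. Of 28 tetraspanins and vesicle proteins, which organise surface patches and are common exosome cargo, Tspan12, Cd151, Cd81 and Tspan13 fell and none rose (14.3%). Of the 28, 22 were lower, with a median of -0.46, which was -0.27 without saline 3 and -0.96 without saline 1. Tspan12, which boosts Frizzled4 signalling in endothelium, had 11.53, 12.13 and 11.63 in saline and 8.28, 8.48 and 9.04 in iCM, a fall of -3.16 ± 0.31 (limma adjusted p = 0.00322). Cd81 had 19.57, 19.62 and 19.18 in saline and 18.14, 18.03 and 17.62 in iCM, near the top of the scale. Tm9sf1 and Tm9sf3, multispanning Golgi proteins, fell by 2.33 and 2.74.

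**Figure D4:**
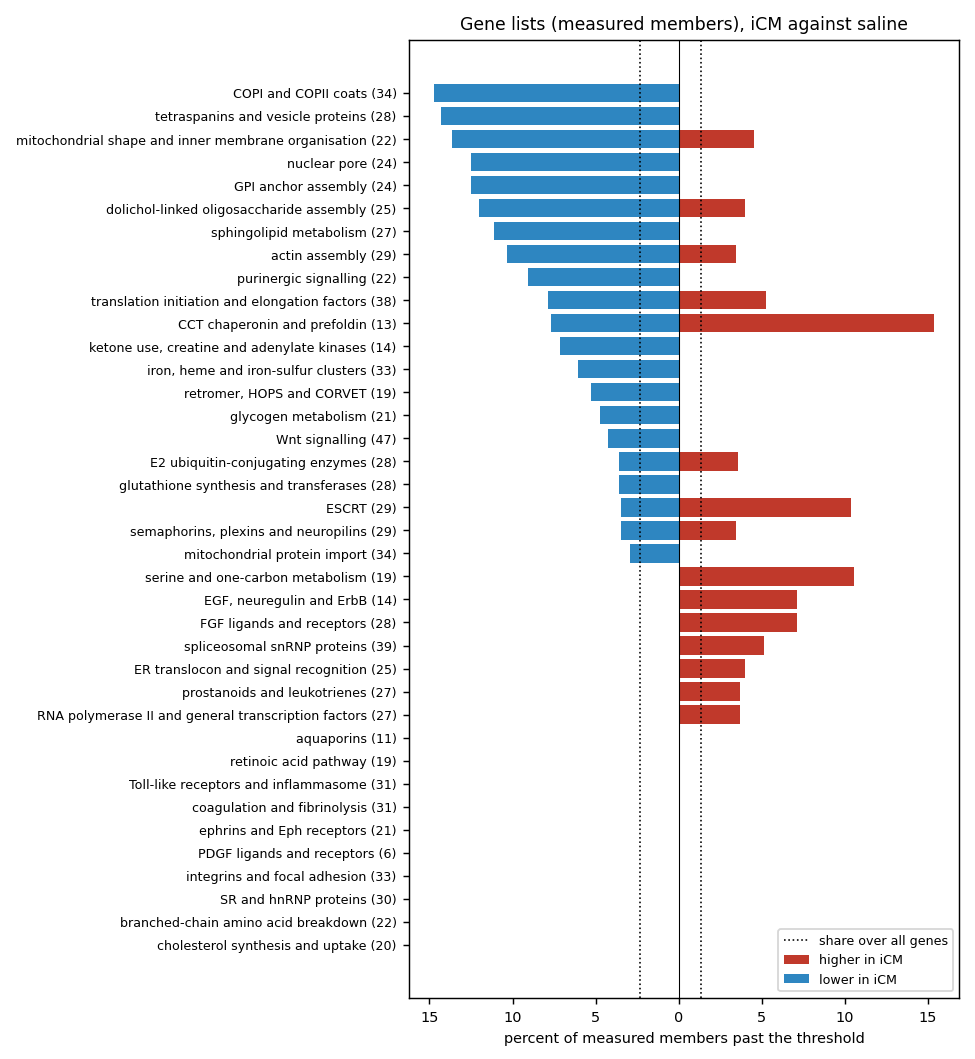
Percent of measured members past the threshold (horizontal axis) that were lower (left) or higher (right) in iCM, for 38 gene lists with the number of measured members in brackets. Dotted lines mark the share over all genes, 2.33% lower and 1.34% higher, and COPI and COPII coats reach 14.7% on the left while 10 lists have no bar.

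Symbol families gave a wider view of the same kind. Of 247 families of at least 10 genes, 127 held no call. Of 226 Tmem genes, a naming group for membrane proteins with little else in common, 17 fell and 1 rose (8.0% against 3.67% of all genes). Their median was -0.08. Tmem47, a junction protein, had 12.52, 12.97 and 13.28 in saline and 9.32, 7.74 and 7.80 in iCM, a fall of -4.64 ± 0.42 (limma adjusted p = 0.00253). It passed the threshold in all 6 repeats and with control separation as a covariate. Tmem185a, Tmem39a and Tmem234 fell by 3.31, 2.53 and 2.91. Of 361 Slc transporter genes 16 fell and 4 rose (5.5%), among them Slc49a4, Slc25a23, Slc48a1 and Slc25a5, which fell by 2.22, 3.60, 4.38 and 2.11. Slc48a1 moves heme across membranes and Slc25a5 exchanges ADP for ATP across the inner mitochondrial membrane. Of the Slc genes Slc49a4 alone passed in all 6 repeats, and Slc48a1 reached a limma adjusted p of 0.0612 without saline 2.

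At the other end, of 1091 Olfr genes, odorant receptors mostly near background here, 4 rose and none fell (0.4%), with a median of 0.14, and -0.01 after quantile normalisation. Of 358 Zfp genes 3 rose and 6 fell (2.5%), below the share over all genes. All 10 Scn genes, which encode sodium channels, were higher, with a median of 0.48, and Scn8a and Scn4b rose by 1.84 and 2.0. The Med genes encode parts of the Mediator complex that links enhancers to RNA polymerase. Of 28, Med14, Med16, Med27 and Med1 fell, by 2.56, 2.14, 1.74 and 1.88, and none rose (14.3%). Of 16 Mapk genes Mapk10, Mapk9 and Mapk1ip1l fell (18.8%), the first 2 of which encode JNK kinases.

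The alpha-tubulin genes Tuba1a and Tuba1b and a few regulators of actin fell. Tuba1a, an alpha-tubulin gene, had 13.62, 13.65 and 14.82 in saline and 11.004, 8.61 and 9.14 in iCM, a fall of -4.45 ± 0.61 (limma adjusted p = 0.00772). Tuba1b, its close relative, had 15.87, 16.71 and 17.26 in saline and 14.47, 11.60 and 10.68 in iCM, and it missed the threshold without saline 2, saline 3 or iCM 2, at a limma adjusted p of up to 0.0832. The groups did not overlap for either gene, and iCM 1 lay nearest to saline in both. Cfl1, which cuts actin filaments, had 14.24, 14.96 and 15.48 in saline and 12.75, 12.26 and 11.66 in iCM. Capzb, which caps filaments, had 14.52, 14.51 and 15.05 in saline and 12.80, 12.12 and 12.21 in iCM. Cfl1, Capzb and Rhoa, the GTPase that drives stress fibres, passed in all 6 repeats, and Rhoa fell by 2.19 ± 0.26. Of 29 actin assembly genes Cfl1, Capzb and Cfl2 fell and the formin gene Diaph2 rose by 2.01 (13.8% called against 3.67% of all genes). In all 11 were higher, with a list median of -0.34. That median was -0.02 without iCM 3.

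The growth hormone receptor gene and Igf1 were among the falls. Igf1, a growth factor for muscle, had 12.88, 14.91 and 14.53 in saline and 11.58, 9.40 and 8.89 in iCM, a fall of -4.15 ± 0.73 (limma adjusted p = 0.018). Its groups did not overlap, but it missed the threshold without saline 2, at a limma adjusted p of 0.0805, and without iCM 2. Ghr, the growth hormone receptor, had 14.14, 13.66 and 13.70 in saline and 11.39, 10.67 and 11.49 in iCM. Tnfrsf12a, the receptor for the cytokine TWEAK, had 12.63, 13.32 and 12.84 in saline and 10.41, 10.61 and 9.87 in iCM. Ghr and Tnfrsf12a passed in all 6 repeats, and Tnfrsf12a also with control separation as a covariate, at a limma adjusted p of 0.049. Of 47 Wnt signalling genes the kinase gene Gsk3b and the receptor gene Fzd5 fell, by 1.68 and 1.25, and none rose (4.3%, near the 3.67% of all genes), with a median of -0.03. Of 22 purinergic genes the ATP receptors P2rx4 and P2ry2 fell, by 2.60 and 2.14, and none rose (9.1%).

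Single genes of other complexes fell. Ppp2r1a, the scaffold of phosphatase 2A, had 12.96, 12.40 and 12.51 in saline and 8.80, 8.56 and 9.87 in iCM, a fall of -3.55 ± 0.41 (limma adjusted p = 0.00421). Ppp6c, a catalytic subunit, fell by 2.95 ± 0.33 and passed in every repeat. Of 77 Ppp genes these, Ppp3cb and Ppp1cc fell and none rose (5.2%, near the 3.67% of all genes), with 42 higher, a median of 0.04, and -0.01 after quantile normalisation. Of 24 nuclear pore genes Ndc1, which anchors the pore in the membrane, fell by 3.32 ± 0.48, and Nup133 and Aaas fell by 1.30 and 1.31. None rose (12.5% called) and 19 were lower. Zfand2a, a proteasome-binding protein made under arsenite and heat stress, had 11.67, 11.55 and 11.94 in saline and 8.25, 7.61 and 7.23 in iCM. It had the joint smallest limma adjusted p, 0.00253, and a highest one of 0.0175 over the 6 repeats. Psmd7, a lid subunit of the proteasome, fell by 3.86 ± 0.46.

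Mitochondrial and metabolic genes also included falls. Mpv17, an inner membrane channel needed for mitochondrial DNA, had 14.94, 13.98 and 14.08 in saline and 10.44, 8.59 and 10.29 in iCM, a fall of -4.56 ± 0.56 (limma adjusted p = 0.00464). Got1, the cytosolic aspartate aminotransferase, had 17.01, 15.73 and 14.53 in saline and 9.72, 9.75 and 13.37 in iCM, so iCM 3 lay near saline 3, and it missed the threshold in 4 of the 6 repeats, at a limma adjusted p of up to 0.0889. Hspb6, of the small heat shock proteins, had 18.81, 17.56 and 16.79 in saline and 11.89, 9.51 and 14.04 in iCM. Its limma adjusted p reached 0.0742 over the repeats, without saline 2. Of 22 genes of mitochondrial shape and inner membrane organisation Mpv17, Mtfr1 and Micos10 fell, and the fission gene Fis1 rose by 1.14 (18.2% called against 3.67% of all genes). The list's median was -0.63, which was -0.24 without iCM 1 and -1.16 without iCM 3. Of 33 genes of iron, heme and iron-sulfur clusters Alas1, the first enzyme of heme synthesis, and Cp, ceruloplasmin, fell, by 2.99 and 1.95 (6.1%). Of 27 sphingolipid genes Smpd1, Sptlc2 and Cers5 fell, by 2.49, 2.43 and 2.12 (11.1%), while the list's median was -0.06, and 0.17 after quantile normalisation. Cth and Gnmt, of 19 genes of serine and one-carbon metabolism, rose by 1.42 and 1.65 at low signal (10.5%).

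Further named falls had single roles. Fcgrt, the receptor that recycles antibodies and albumin, had 12.66, 11.96 and 13.40 in saline and 9.46, 7.59 and 8.18 in iCM. Cops9, the smallest subunit of the COP9 signalosome, fell by 4.38 ± 0.73, and Sccpdh, an oxidoreductase-like protein, by 4.14 ± 0.67. Both missed the threshold without saline 2, at limma adjusted p = 0.0699 and 0.0652, and Sccpdh also without iCM 2. Gpx3, an extracellular glutathione peroxidase, had 18.27, 18.57 and 19.00 in saline and 14.81, 14.83 and 15.66 in iCM, with a difference far larger than the spread in either group.

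In 10 of the 38 lists no gene passed the limma threshold. Of their 224 genes 53 had an unadjusted p under 0.05, and after quantile normalisation 4 were called, 3 of them in the cholesterol list. Cholesterol synthesis and uptake was the lowest of the larger of these, with 17 of 20 genes lower and a median of -0.80. Hmgcs1, an early enzyme of that pathway, had 10.23, 11.06 and 11.38 in saline and 9.88, 8.69 and 9.17 in iCM, with no overlap and a limma adjusted p of 0.0521. Srebf2, the transcription factor that drives it, had 9.42, 10.65 and 10.95 in saline and 9.29, 8.37 and 8.20 in iCM. Of 6 PDGF ligands and receptors the median was -1.03, and -1.56 without saline 1. The lists of Toll-like receptors and the inflammasome (31 genes), integrins and focal adhesion (33 genes), SR and hnRNP proteins (30 genes) and coagulation (31 genes) had medians of -0.06, -0.09, 0.03 and 0.25, and the integrin median was 0.02 after quantile normalisation. The other lists without calls were branched-chain amino acid breakdown, ephrins, retinoic acid and aquaporins. Over all lists, 22 of 970 genes rose and 45 fell (6.9% against 3.67% of all genes), with a median of -0.12.

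Genes driven by 1 array were looked for by value, so their counts are descriptions. A gene was counted where 1 of the 6 arrays lay at least 2 on the log2 scale from the nearest of the others and farther than those spanned among themselves, which held for 245 genes (1.26%), 177 with the array above and 68 with it below. None of the 245 passed the limma threshold, while 48 had an unadjusted p under 0.05 and 2 were called after quantile normalisation. The array was iCM 2 in 76 genes, saline 1 in 73, iCM 3 in 40, iCM 1 in 34, saline 3 in 18 and saline 2 in 4. At a gap of at least 1 the rule held for 1737 genes and at a gap of at least 3 for 74.

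**Figure D5:**
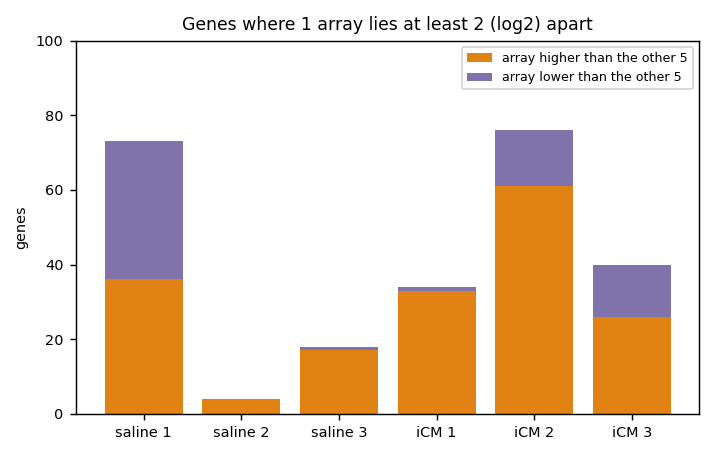
Number of genes (vertical axis) in which the named array lies at least 2 (log2) from the nearest of the other 5, split by whether it lies above or below them. iCM 2 leads with 76 genes and saline 1 follows with 73, and saline 2 has 4.

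The 34 genes on iCM 1 included markers of lung. Sftpa1, a surfactant protein gene, had 17.02 on iCM 1, 6.97 and 5.05 on iCM 2 and 3, and 3.75 to 4.27 in saline. The largest difference of all genes, 7.11 for the surfactant gene Sftpc, was of this kind, with 19.53 on iCM 1, 11.02 on iCM 2, 6.83 on iCM 3 and at most 5.96 in saline. Scgb1a1, the secretoglobin of airway club cells, had 12.50 on iCM 1 and 3.92 to 4.68 on the other 5, and its difference of 2.65 became -0.16 without iCM 1. Of the 10 lung markers 9 were such genes on iCM 1, and Inmt, Ager, Cldn18, Slc34a2 and Lamp3, all known from lung, also stood apart there.

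The 76 genes on iCM 2 included markers of fast skeletal muscle and of fat. Myh4, a fast myosin, had 15.77 on iCM 2 and 3.41 to 5.03 on the other 5, and Myh8, the perinatal myosin, had 17.47 against 3.52 to 7.01. Car3, a carbonic anhydrase of slow muscle and fat, had 17.00 on iCM 2 and 4.48 to 9.19 on the others. Of 11 fast muscle markers 9 stood apart on iCM 2, among them Tnni2, Mylpf, Tnnt3, Atp2a1 and Pvalb, and of 10 fat markers 5 did. The slow skeletal troponin gene Tnnt1, in contrast, passed the threshold in all 6 repeats, with 5.68, 5.84 and 6.10 in saline and 7.75, 9.25 and 8.32 in iCM. Its highest value was on iCM 2, and its limma adjusted p was at most 0.0466 over the repeats.

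On iCM 3, 26 of the 40 genes stood higher than on the other arrays and 14 lower, and at a gap of at least 3 it was 3 higher and 7 lower. Ccl21a and Ccl21c, near-identical chemokine genes of lymphatic vessels, had 6.91 and 6.84 on iCM 3 and 11.07 to 14.40 and 11.68 to 14.22 on the other 5. Fn1, fibronectin, had 9.82 on iCM 3 and 13.73 to 16.15 elsewhere, and Fmod and Thbs1, of the matrix, also stood low there. Map1lc3a, an autophagy protein, stood high, with 13.96 against 9.69 to 10.90, as did Acot1 and Hint2. On saline 3 the genes with the largest gaps included several known from macrophages, with Fcer1g at 13.61 against 7.20 to 9.26, Trem2 at 10.58 against 5.40 to 7.69, and Ly86, Tlr13, C3ar1 and Pirb alike. The mean of 9 macrophage markers was 12.41 on saline 3, 9.33 and 10.59 on saline 1 and 2, and 9.92 to 11 in iCM. Slc7a8 and Rhoj stood high on saline 3 too.

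On saline 1 the genes named no tissue. Cers6, a ceramide synthase, had 6.31 on saline 1 and 10.13 to 11.98 on the other 5. Cdk11b and Ccl9 were low there as well, and Slc9c1, Cdr1, Chrm5, Rnase2b and Cldn34d were high at low signal. On saline 2 Ccn3, a matricellular protein, had 11.70 against 5.88 to 7.86, and Sfrp4 and Angptl1 also stood high.

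The iCM-Ex hearts share the saline controls with this comparison, so their differences from saline are given only side by side for the genes described. For Rps20 the iCM-Ex arrays had 14.05, 14.72 and 14.46, a difference from saline of 2.83 beside 2.37 for iCM. Naca had 14.64, 14.72 and 15.12 in iCM-Ex, a difference of 2.44 beside 2.30, and Tnnt1 had 8.36, 8.24 and 8.20, a difference of 2.40 beside 2.57. For the interferon-inducible GTPases the iCM-Ex differences were smaller, at 1.25 beside 5.08 for Igtp and 0.81 beside 4.30 for Irgm1. They were 0.82 beside 5.30 for Iigp1, 0.53 beside 4.54 for Gbp4 and 1.83 beside 5.17 for Tgtp2. The HIN-200 genes Mndal and Ifi204 differed from saline by 3.27 and 2.79 in iCM-Ex, beside 4.88 and 4.17 in iCM. Among the falls, Dad1 had 16.36, 17.43 and 18.01 in iCM-Ex, a difference of -0.72 beside -6.35, and Mgat2 had a difference of -0.08 beside -3.51. Psmd7 had 11.94, 12.64 and 12.17, a difference of -2.98 beside -3.86.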

How the data were processed

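RNA from the peri-infarct region was measured on Clariom S arrays, 1 per heart, with 5.5 ug of labelled cDNA per the labels' protocols. The authors deposited log2 signals per probe set. The submitters' processing notes name Affymetrix Expression Console, while its version, background correction and normalisation were not stated in what was read here, and the scale was inferred from the range of the signals. Precision is limited by the number of arrays.

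Of 28846 rows, 6640 were controls, and of 22206 gene rows 19572 had 1 symbol (2634 had none and were left out). The brightest row was kept for the 55 genes with several. All 9 arrays entered a limma 3.58.1 fit (R 4.3.3) with 1 mean per group and empirical Bayes moderation, without further normalisation or filter. The contrast was iCM minus saline, and p-values were two-sided and adjusted by the Benjamini-Hochberg method over 19505 genes, with a threshold of 0.05. The script was tested on simulated data. Differences are of mean log2 signal, ± is the standard error for differences and SD for levels. Lists and families were counted without any test of the set. Motifs were searched in RefSeq promoters, 250 bases before to 50 after each start. Counts and summaries used Python 3.11.15, pandas 2.3.3, numpy 2.4.6, scipy 1.17.1 and matplotlib 3.10.9.

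The members, lists and rules were chosen with earlier results of these data known. Genes named were the 15 rises and 15 falls that stayed largest without any 1 array (predicted genes and odorant and vomeronasal receptors excepted), up to 4 called members of each list or family described (where a list had none, the 2 with the largest difference), up to 8 genes per array in which it stood apart, cell type markers, and 5 genes on each side of the threshold. Genes named outside these rules, among them those of the 105 that passed in every repeat, were chosen after their values were seen. Alternatives changed the normalisation, dim-gene filter, arrays fitted, rows, variance model, array weights, covariates, replicate block and arrays left out.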

Additional observations from a re-analysis of the deposited data

How the results depend on the processing

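The 716 calls became 279 with the saline and iCM arrays alone (82 rises, 197 falls), 1500 with array weights (506 and 994), 33 once control separation was a covariate (20 and 13), 6 with iCM 1, iCM 2 and iCM-Ex 3 left out (2 and 4, with 1 iCM array, assumed to vary like the other groups) and 9 with only the arrays without Y-linked signal (8 and 1), the last chosen after seeing the data, as was the Y-linked covariate. Quantile normalisation gave 418 rises. Leaving out 1 array gave 126 to 803 calls, 40 to 307 rises and 86 to 496 falls. All 716 genes kept their sign in every alternative that fitted them. Leaving out arrays could not have changed it, because the groups did not overlap in any of the 716. The cause of the lost calls was not tested. Saline and iCM arrays share replicate numbers. Deviations of same-numbered arrays from their group means correlated at -0.197, 0.046 and -0.257. With 3 arrays per group, whose deviations are tied to each other, these values cannot settle whether the numbers pair the hearts. With the replicate number as a block, limma called 338 genes (110 rises, 228 falls), 319 of them shared. Of 169 named called genes, 163 kept their call under quantile normalisation, 23 with control separation as a covariate and 107 without saline 2. With only the arrays without Y-linked signal 5 kept it. Genes with 1 array apart numbered 1737 at a gap of 1, 74 at a gap of 3 and 293 after quantile normalisation, 2 of them called. Control separation differed by -0.63 to -0.26 without each array. Few arrays and signals near the negative controls limit changes of dim genes.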
